A study of Mus musculus with 6 samples.

Results

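The 32 genes described here encode glutamate receptors and their auxiliary subunits, and were taken by symbol from a list of named genes. No measured value entered the rule, but the genes were chosen with earlier results of these data known. The 32 comprise 4 AMPA, 5 kainate and 7 NMDA receptor subunits, 1 delta subunit, 7 metabotropic receptors, 6 transmembrane AMPA receptor regulatory proteins (TARPs) and 2 kainate receptor auxiliary subunits, out of 34289 genes with a matched transcript. All 32 passed the filter on low counts and were among the 16985 genes tested. RNA sequencing had been done on postmitotic neurons of mouse cortex at E14.5, that is during embryonic neurogenesis. The libraries called mutant are labelled as RP58-/- cortices (n = 3), which by that genotype lack both copies of Rp58, and those called control as RP58+/+ cortices (n = 3), with both copies. Rp58, now named Zbtb18, encodes a zinc finger protein that represses transcription and is needed for cortical neurons to mature. The labels do not state how the neurons were isolated, nor whether each library is from an embryo of its own, so the p-values measure the spread between these libraries, which may be technical. The comparison asks how the absence of this repressor changes receptor transcripts in young cortical neurons.

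Glutamate is the main excitatory transmitter of the cortex. AMPA, kainate and NMDA receptors are ion channels built from several subunits, and which subunits are made sets their speed, their calcium permeability and their response to magnesium. Metabotropic receptors act through G proteins, and TARPs and NETO proteins bind AMPA and kainate receptors and alter their trafficking and gating. Migrating cortical neurons carry several of these receptors before synapses form.

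Total estimated counts ranged from 53044306 to 56472475 in the mutant libraries and from 34645505 to 75892649 in the control libraries. The libraries were of 2 types. In mutants 1 and 2 and control 1, every transcript over 1000 bases had an effective length below its length by 1 constant number of bases (fixed-length type), while in the library labelled mutant 3 and controls 2 and 3 the gap lay between 133.7 and 139.2 bases (estimated-length type). The types also differed in RNA content, with mitochondrial transcripts at 3.58% to 5.15% of counts in fixed-length libraries and 16.4% to 17.5% in estimated-length libraries, so library type was a term of the main fit. Zbtb18 was at 46.7, 45.7 and 538 CPM in mutants 1, 2 and 3, against 1902, 1587 and 1697 CPM in controls 1, 2 and 3, where CPM is the count scaled to the normalized library size. The library labelled mutant 3 thus kept 32.8% of the Zbtb18 level of its type's controls, while mutants 1 and 2 kept 2.45% and 2.40% (log2 fold change -3.48 ± 0.81, adjusted p = 0.0337 by edgeR's quasi-likelihood test with Benjamini-Hochberg adjustment, and 0.400 without the type term). The level in the library labelled mutant 3 goes in part against its label, and why was not tested. Without that library, 8 of the 13 receptor genes called below were called, namely Gria3, Grik3, Grin2b, Grin3a, Grm7, Cacng3, Cacng5 and Neto1, and Gria2, Grik1, Grik2, Cacng4 and Cacng8 were not.

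The receptor genes went both ways. Of the 32, 13 were called at an adjusted p under 0.05 (40.6%), while 14.9% of all genes tested were called. As the 32 were chosen with earlier results of these data known, these shares are not an unbiased comparison. There were 8 that rose in the mutants (7.92% of all genes did) and 5 that fell (7.01% of all genes did). The rises were in Cacng5, Grin3a, Cacng3, Grik1, Neto1, Grm7, Grik2 and Cacng4, and the falls in Grik3, Gria3, Grin2b, Cacng8 and Gria2. The median log2 fold change, mutant over control, was 0.18 over the 32 genes and -0.00081 over all genes tested. Within the fixed-length libraries 9 of the 32 were called (9.46% of all genes), and within the estimated-length libraries 10 were (7.92% of all genes). All 13 had the same sign within both types, and 8 were called within both. In the fit without the library type term 2 of the 32 were called higher (Cacng5 and Grin3a, beside 1.59% of all genes) and 2 lower (Gria3 and Grik3, beside 0.765% of all genes), 2.36% of all genes being called in either direction. Leaving out 1 library at a time, 7 of the 13 kept their call in all 6 fits, namely Gria3, Grik3, Grin2b, Grin3a, Cacng3, Cacng5 and Neto1, and the number of the 32 called was 11, 12 and 8 without mutants 1, 2 and 3, beside 11.7%, 16.9% and 8.96% of all genes. It was 9, 8 and 9 without controls 1, 2 and 3, beside 7.19%, 8.0% and 8.21% of all genes. Without the type term as well, it was 2, 1 and 3 after dropping mutants 1, 2 and 3, beside 0.596%, 0.535% and 1.89% of all genes, and 4, 1 and 2 after dropping controls 1, 2 and 3, beside 1.54%, 0.476% and 0.557% of all genes. With limma on log2(TPM + 0.1) it was 8, beside 7.87% of all genes, with DESeq2 16, beside 23.7% of all genes, and with no filter on low counts 14, beside 11.0% of all genes. Mutant and control libraries did not overlap for 12 of the 32, with 8 higher and 4 lower in every mutant, while 15.4% of all genes tested did not overlap (8.80% higher and 6.64% lower).

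**Figure D1:**
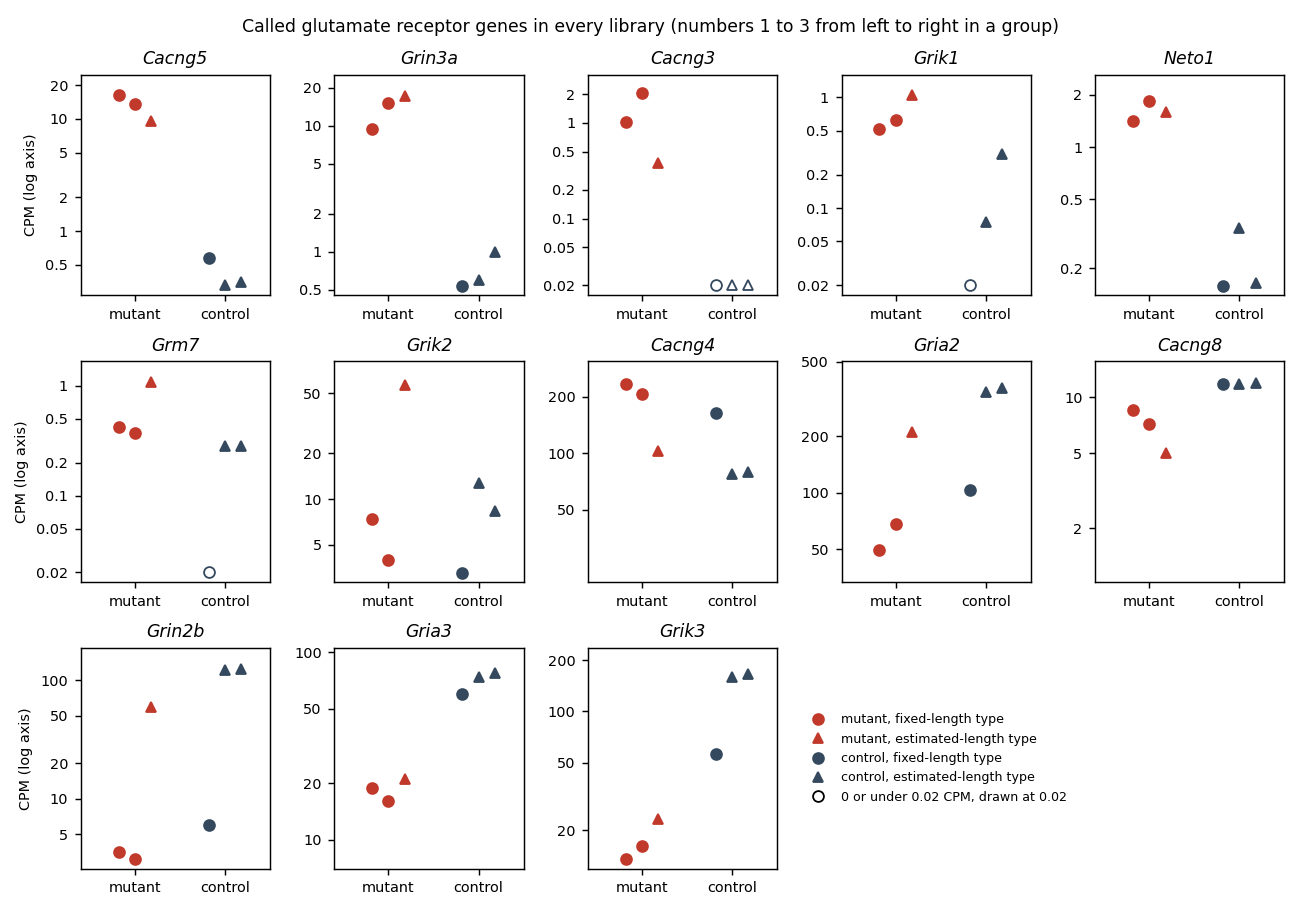
CPM on a log axis of the 13 called genes in the 3 mutant and the 3 control libraries, each point a library, circles for the fixed-length and triangles for the estimated-length type, hollow symbols at 0 counts. Mutants and controls are separate for 9 of the 13 genes. For Grin2b, Gria2, Grik2 and Cacng4 they overlap across types, and within each type the mutants of each of these genes lie on 1 side of the controls.

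**Figure D2:**
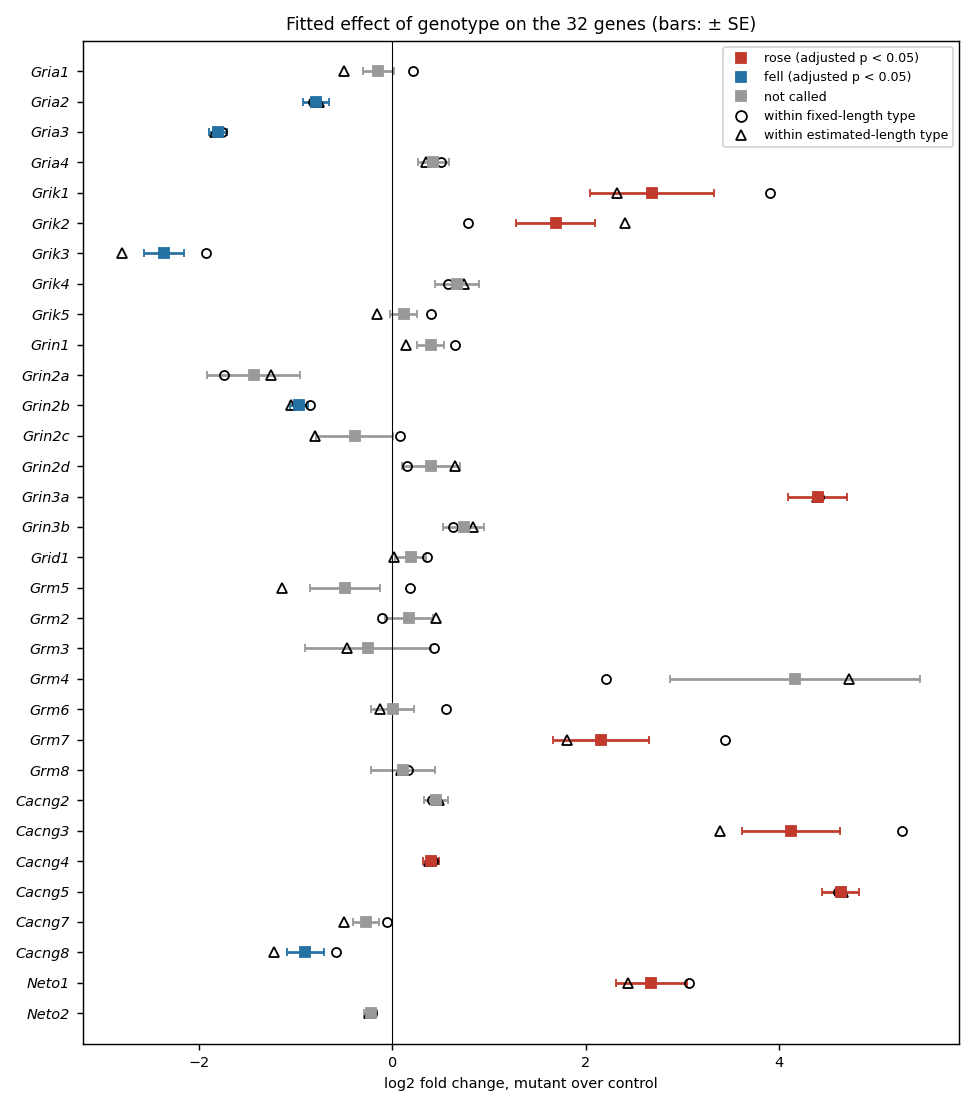
Fitted log2 fold change (mutant over control) of all 32 genes with its SE, coloured by call, with the values within each library type as hollow symbols. The 5 called falls lie between -2.36 and -0.79 and the 8 called rises between 0.40 and 4.64.

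Among the AMPA receptor genes, Gria3 and Gria2 fell and none rose. Gria3, which encodes the GluA3 subunit, was at 18.8, 16.1 and 21.2 CPM in mutants 1, 2 and 3, against 59.4, 73.6 and 77.5 CPM in controls 1, 2 and 3. All mutants lay below all controls, and the log2 fold change was -1.80 ± 0.09 (SE, adjusted p = 8.58e-05). Gria2, whose GluA2 subunit makes the channel nearly impermeable to calcium once its RNA is edited, was at 49.5, 68.0 and 210 CPM in the mutants, against 104, 343 and 363 CPM in the controls. The groups overlapped across library types, because the library labelled mutant 3 exceeded control 1, but each mutant lay below the controls of its own type, at 0.567 of control 1 for the mean of mutants 1 and 2 and at 0.593 of the mean of controls 2 and 3 for the library labelled mutant 3. The fitted log2 fold change of Gria2 was -0.79 ± 0.13 (adjusted p = 0.0103, and 0.806 without the library type term), and the call was lost without control 1 or the library labelled mutant 3 (adjusted p up to 0.127). In bulk RNA of this kind, fewer cells that carry a transcript and less of it per cell cannot be told apart.

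Gria1 and Gria4 were not called. Gria1, encoding GluA1, was at 68.1, 70.1 and 57.4 CPM in mutants 1, 2 and 3, against 59.7, 81.8 and 80.5 CPM in controls 1, 2 and 3. Its log2 fold change was -0.14 ± 0.16 (adjusted p = 0.602), at 0.21 within the fixed-length and -0.50 within the estimated-length libraries. Gria4, encoding the GluA4 subunit, was at 10.4, 10.6 and 14.2 CPM in the mutants and 7.44, 12.6 and 9.55 CPM in the controls (adjusted p = 0.129). Both sets of values overlapped between the genotypes.

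Relative levels of the 4 AMPA genes were read from TPM, which is scaled by effective transcript length and so allows genes of 1 library to be compared. Gria3 made up 14.45%, 11.1% and 9.63% of the summed AMPA subunit TPM in mutants 1, 2 and 3, against 30.9%, 19.3% and 19.8% in controls 1, 2 and 3. Gria4 made up 9.78%, 8.80% and 7.46% in the mutants, against 4.72%, 3.81% and 2.56% in the controls. Neither share overlapped between the genotypes, with Gria3 taking a smaller part of the sum in every mutant and Gria4 a larger one. The exact two-sided permutation test gave p = 0.1 for each, the smallest that 3 against 3 libraries allow, and 0.325 after adjustment over the 13 shares computed for the 3 receptor families. The share of Gria1 ran from 22.6% to 47.9% in the mutants and from 18.4% to 26.9% in the controls, and that of Gria2 from 27.9% to 60.3% in the mutants and from 37.5% to 59.2% in the controls. Both shares separated the library types, with Gria1 higher in every fixed-length and Gria2 in every estimated-length library.

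**Figure D3:**
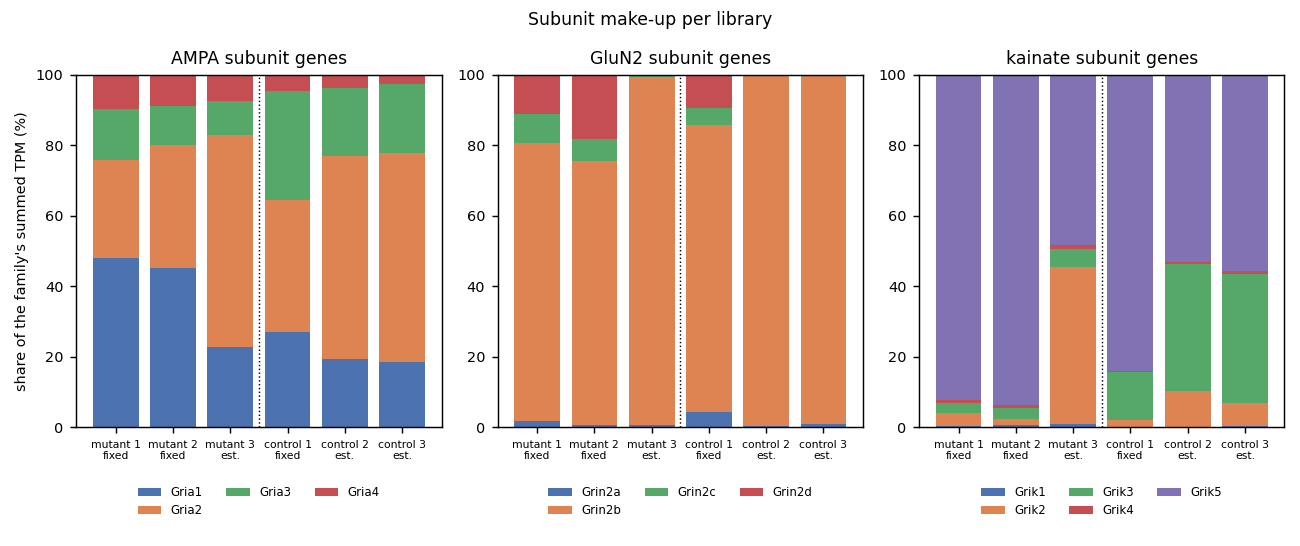
Stacked bars of each gene's share (%) of the summed TPM of its family in each library, mutants left of the dotted line and controls right of it, with the library type (fixed or estimated, est.) under each bar. The Gria3 and Grik3 segments are smaller in each mutant than in each control, and Grik2 takes 44.6% in the library labelled mutant 3.

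AMPA receptor transcripts carry 1 of 2 alternative exons, called flip and flop, which encode part of the ligand-binding domain and alter desensitization. Flip forms are known to prevail in the embryonic brain. The exon pair of Gria2 is shown because it is the part that tells the forms apart. Both exons are 115 bases long, lie on the minus strand of chromosome 3 in GRCm38, at chr3:80690404-80690518 for flip and chr3:80691320-80691434 for flop, and come from the GENCODE vM21 transcripts. Capitals mark the 36 positions at which they differ.
Gria2 flip: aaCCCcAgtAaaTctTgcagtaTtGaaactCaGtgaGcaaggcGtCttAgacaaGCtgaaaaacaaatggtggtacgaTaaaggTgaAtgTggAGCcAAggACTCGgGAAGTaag
Gria2 flop: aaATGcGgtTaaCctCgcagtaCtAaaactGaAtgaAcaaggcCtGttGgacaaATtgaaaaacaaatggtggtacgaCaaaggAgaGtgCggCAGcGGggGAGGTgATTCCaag
Flip transcripts made up 85.0%, 70.5% and 71.0% of the Gria2 flip and flop TPM in mutants 1, 2 and 3, against 74.7%, 63.6% and 70.7% in controls 1, 2 and 3. For Gria1 the flip share ran from 93.2% to 97.7% in the mutants and from 93.8% to 94.0% in the controls, and for Gria3 from 75.6% to 100% in the mutants and from 84.9% to 98.0% in the controls. For Gria4 it was at least 99.7% in every library. Flip forms were the larger part in all 4 genes and all 6 libraries, the genotypes overlapped for each gene, and the exact permutation p ran from 0.4 to 1.0 (n = 3 each). The deposited Gria2 transcripts are both 6841 bases long, whereas the vM21 models of the same identifiers are 4026 (flip) and 10371 bases (flop), so flip and flop were assigned by identifier, and the indexed sequences themselves were not analysed here.

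**Figure D4:**
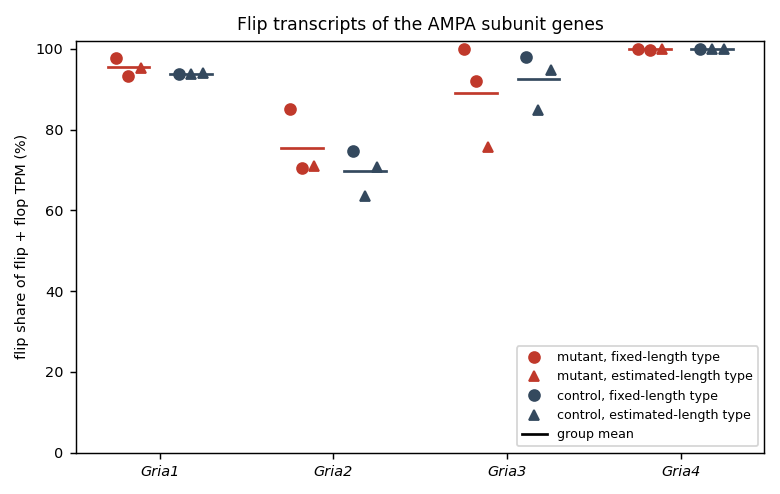
Flip share (%) of the flip and flop TPM of each AMPA subunit gene, each point a library and each line a group mean. Flip is at least 63.6% in every library for each gene, and mutant and control points overlap for each.

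Of the 5 kainate receptor genes, Grik3 fell, Grik2 and Grik1 rose with calls that most fits leaving out a library lost, and Grik4 and Grik5 were not called. Grik3, encoding the low-affinity subunit GluK3, was at 13.5, 16.1 and 23.4 CPM in mutants 1, 2 and 3, against 56.4, 159 and 166 CPM in controls 1, 2 and 3. All mutants lay below all controls, and the log2 fold change was -2.36 ± 0.20 (adjusted p = 0.000601). The fall was -1.93 within the fixed-length and -2.79 within the estimated-length libraries (unadjusted p = 0.006 for the difference, adjusted p = 0.366). In TPM, Grik3 made up 2.82%, 3.19% and 5.20% of the summed kainate subunit level in the mutants, against 13.6%, 36.0% and 36.7% in the controls, with no overlap (exact permutation p = 0.1).

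Grik2, encoding GluK2, was at 7.39, 3.95 and 56.2 CPM in mutants 1, 2 and 3, against 3.28, 12.7 and 8.34 CPM in controls 1, 2 and 3. The library labelled mutant 3 stood far above every other library, and the other mutants lay within the range of the controls. The log2 fold change of 1.69 ± 0.41 was called (adjusted p = 0.0387, and 0.996 without the library type term), and was 0.78 (adjusted p = 0.366) when the library labelled mutant 3 was left out. The call was also lost without control 2, control 3 or mutant 1. The types differed in the transcript that received the reads. In mutants 1 and 2 and control 1 a model of 3878 bases (ENSMUST00000105484) took the gene's counts, and in the library labelled mutant 3 and controls 2 and 3 a model of 2610 bases (ENSMUST00000079751) took them.

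Grik1, encoding GluK1, was scarce in the controls and rose. It had 27, 33 and 52 counts in mutants 1, 2 and 3 (0.521, 0.617 and 1.05 CPM), against 0, 5 and 13 counts in controls 1, 2 and 3 (0, 0.0744 and 0.308 CPM). The groups did not overlap, and the log2 fold change was 2.69 ± 0.64 (adjusted p = 0.0364), a call kept only without control 3 among the 6 fits that left out a library. Grik4 and Grik5 encode the high-affinity subunits, which need a partner to form a channel. Grik5 was the most abundant kainate gene per length in every library, at 48.3% to 93.9% of the summed TPM in the mutants and 53.1% to 84.0% in the controls. Its CPM was 182, 195 and 90.9 in the mutants and 143, 98.1 and 105 in the controls (log2 fold change 0.12 ± 0.14, adjusted p = 0.631). Grik4 averaged 2.24 ± 0.89 CPM in mutants and 1.67 ± 0.54 CPM in controls (SD, n = 3 each) and was not called (adjusted p = 0.103).

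Of the kainate receptor auxiliary genes, Neto1 rose and Neto2 was not called. Neto1 was at 1.41, 1.85 and 1.60 CPM in mutants 1, 2 and 3, against 0.159, 0.342 and 0.166 CPM in controls 1, 2 and 3. Every mutant exceeded every control (log2 fold change 2.68 ± 0.37, adjusted p = 0.00419, and 0.0734 without the library type term). Neto2, by far the more abundant of the pair, was at 48.2, 49.3 and 48.0 CPM in the mutants, against 56.4, 56.2 and 57.3 CPM in the controls. Its values were tight and did not overlap, but the log2 fold change of -0.23 ± 0.07 missed the threshold (adjusted p = 0.0825, and 0.00555 with DESeq2).

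In the NMDA receptor family, Grin3a rose and Grin2b fell. Grin3a encodes GluN3A, a subunit of juvenile neurons that lowers the calcium permeability and magnesium block of NMDA receptors. It was at 9.38, 15.2 and 17.2 CPM in mutants 1, 2 and 3, against 0.540, 0.595 and 0.995 CPM in controls 1, 2 and 3. Every mutant lay above every control, with a fitted 21.1-fold rise (log2 fold change 4.40 ± 0.30, adjusted p = 0.000251). The rise was 22.8-fold in CPM within the fixed-length and 21.6-fold within the estimated-length libraries. Grin3b, its relative GluN3B, averaged 2.01 ± 0.37 CPM in mutants and 1.28 ± 0.12 CPM in controls, with no overlap, and was not called (log2 fold change 0.74 ± 0.21, adjusted p = 0.0649, and 0.0479 with DESeq2).

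Grin2b, encoding GluN2B, the main GluN2 subunit of embryonic cortex, was at 3.53, 3.09 and 59.1 CPM in mutants 1, 2 and 3, against 6.01, 121 and 124 CPM in controls 1, 2 and 3. Its level was far higher in estimated-length than in fixed-length libraries, and within each type the mutants lay below the controls, at 0.551 of the control in fixed-length libraries and 0.482 in estimated-length libraries. The log2 fold change was -0.97 ± 0.09 (adjusted p = 0.00103), and the call was kept whichever library was left out but not without the library type term (adjusted p = 0.996). Grin1, the obligatory GluN1 subunit, was at 27.4, 27.6 and 18.5 CPM in the mutants, against 17.5, 15.7 and 17.8 CPM in the controls. It was higher in each mutant than in each control but was not called (log2 fold change 0.40 ± 0.14, adjusted p = 0.110). Within the fixed-length libraries it was called at 0.65 (adjusted p = 0.0446), and within the estimated-length libraries it was at 0.15 (adjusted p = 0.642).

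The other GluN2 genes were close to the lower limit of detection and none was called. Grin2a, which replaces Grin2b as the cortex matures, averaged 0.120 ± 0.143 CPM in mutants and 0.573 ± 0.407 CPM in controls (adjusted p = 0.0972). Grin2c and Grin2d averaged 0.220 and 0.559 CPM in mutants and 0.311 and 0.369 CPM in controls. Grin2b made up 78.8%, 74.7% and 98.5% of the summed GluN2 TPM in mutants 1, 2 and 3, against 81.3%, 99.2% and 98.7% in controls 1, 2 and 3. Grin2b was thus the leading GluN2 gene in every library, with a smaller share in all 3 fixed-length ones.

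The TARP genes held the gene with the largest fitted rise of the 32. Cacng5, which encodes the TARP gamma-5, was at 16.3, 13.4 and 9.60 CPM in mutants 1, 2 and 3, against 0.572, 0.328 and 0.355 CPM in controls 1, 2 and 3. Every mutant was above every control (log2 fold change 4.64 ± 0.19, 24.9-fold, adjusted p = 4.33e-05), and the change was 4.61 within the fixed-length and 4.66 within the estimated-length libraries. Cacng3, encoding gamma-3, had 53, 109 and 19 counts in the mutants and none in any control. Against the limit set by 3 counts over the control libraries of the same type, the mutants were at least 16.1-fold higher in the fixed-length and at least 14.03-fold higher in the estimated-length libraries. The edgeR fit over both types called Cacng3 (adjusted p = 0.00922, and 0.0943 without the library type term). Over both types the mutant mean of 1.15 CPM was at least 53.9-fold higher than that limit, 0.0213 CPM, or at least 28.2-fold without control 2, 33.0-fold without mutant 2 and 71.9-fold without the library labelled mutant 3. Such limits cover counting error only.

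Cacng4, encoding gamma-4, lies next to Cacng5 on chromosome 11 with no protein-coding gene between them. It was at 234, 207 and 103 CPM in mutants 1, 2 and 3, against 164, 77.8 and 79.9 CPM in controls 1, 2 and 3. Within each type the mutants were higher (log2 fold change 0.42 in fixed-length and 0.38 in estimated-length libraries). The rise fitted over both types was 1.32-fold (log2 fold change 0.40 ± 0.08, adjusted p = 0.0231, and 0.865 without the library type term). The call of Cacng4 was also lost with the effective length offset, without any 1 of the controls or without the library labelled mutant 3. Cacng7 and Cacng8 are likewise neighbours, on chromosome 7. Cacng8, encoding gamma-8, was at 8.49, 7.20 and 5.04 CPM in the mutants, against 11.7, 11.8 and 11.9 CPM in the controls. Every mutant lay below every control (log2 fold change -0.90 ± 0.20, adjusted p = 0.0262), and the call was lost without control 2, control 3 or the library labelled mutant 3 (adjusted p up to 0.142).

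Cacng7, encoding gamma-7, was at 161, 196 and 30.2 CPM in mutants 1, 2 and 3, against 185, 42.7 and 42.6 CPM in controls 1, 2 and 3, and was not called (log2 fold change -0.27 ± 0.13, adjusted p = 0.230). Of the 6 fits that left out a library, 1 called Cacng7 lower. It was higher in every fixed-length library than in any other and, without the type term, the fitted change was 0.52. Cacng2, the gene of stargazin, was at 17.6, 19.6 and 13.3 CPM in the mutants, against 13.9, 8.81 and 10.1 CPM in the controls, with an overlap of the library labelled mutant 3 and control 1, and missed the threshold (log2 fold change 0.45 ± 0.12, adjusted p = 0.0548). DESeq2 called Cacng2 (adjusted p = 0.0146). Of the 6 TARP genes, 3 rose and 1 fell, beside 7.92% and 7.01% of all genes, and 2 were not called.

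Among the metabotropic receptor genes 1 of 7 was called, a share near the 14.9% of all genes, and 4 of 7 averaged under 1 CPM in both genotypes. Grm7, a presynaptic group III receptor, had 22, 20 and 54 counts in mutants 1, 2 and 3 (0.425, 0.374 and 1.09 CPM), against 0, 19 and 12 counts in controls 1, 2 and 3 (0, 0.283 and 0.284 CPM). The groups were separate, although narrowly so (log2 fold change 2.16 ± 0.50, adjusted p = 0.0325), and of the 6 fits that dropped a library only that lacking the library labelled mutant 3 kept the call. Grm4 had 0, 47 and 227 counts in the mutants and 2, 16 and 0 counts in the controls, and was not called (adjusted p = 0.0811, and 0.000872 with no filter on low counts). Of the 6 fits that dropped a library, 1 called Grm4 higher. Grm5, the group I receptor coupled to phospholipase C, averaged 3.39 ± 0.77 CPM in mutants and 5.42 ± 2.0 CPM in controls (adjusted p = 0.421). Grm2, a group II receptor, was at 9.46, 6.12 and 4.74 CPM in mutants 1, 2 and 3, against 8.36, 3.93 and 2.94 CPM in controls 1, 2 and 3, with overlap (adjusted p = 0.702). Grm3, Grm6 and Grm8 stayed at or below 0.734 CPM in every library. Grid1, which encodes the delta receptor GluD1, was at 16.4, 14.3 and 6.24 CPM in the mutants, against 11.99, 6.55 and 5.76 CPM in the controls, and was not called (adjusted p = 0.483).

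The order of levels per length was read within library types. In the fixed-length libraries Cacng7, Cacng4 and Grik5 led, with mean TPM of 133, 98.7 and 76.2 in mutants 1 and 2, against 121, 65.8 and 51.0 in control 1. In the estimated-length libraries the order began differently. Cacng4, Gria2 and Grik5 led the library labelled mutant 3 at 9.65, 9.63 and 7.56 TPM, while Gria2, Grin2b and Grik5 led controls 2 and 3 at means of 16.8, 10.6 and 8.79 TPM. Cacng8 is represented by a single model of 663 bases, which raises its TPM relative to its count.

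At the level of single transcripts, 3 of 58 member transcripts tested were called (5.17%), beside 1.74% of all transcripts tested. All 3 fell. They were the main models of Gria3 (ENSMUST00000076349, log2 fold change -1.97 ± 0.18, adjusted p = 0.0163), Grik3 (ENSMUST00000030676, -2.32 ± 0.23, adjusted p = 0.0196) and Grin2b (ENSMUST00000111905, -0.89 ± 0.12, adjusted p = 0.0385). Counts of Cacng5 were divided between a pair of models, neither of which was called alone (adjusted p = 0.118 and 0.198).

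The difference of the genotype effect between library types was called for none of the 32 genes, beside 0.153% of all genes. At an unadjusted p under 0.05 it was counted for 7 of the 32, beside 7.19% of all genes. These 7 were Gria1, Grik2, Grik3, Grik5, Grin1, Grm5 and Grm7, and the differences ran from -1.63 for Grm7 to 1.63 for Grik2 (estimated-length minus fixed-length, log2 scale).

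RP58 is known to bind a sequence with the core ACATCTG. Promoter windows of 300 bases, from 250 before to 50 after the start, were taken from RefSeq (GRCm38.p6) for 21 of the 32 genes, and some genes have several starts, giving 26 windows. The core was searched on both strands. It was present in 1 of the 26 windows (3.85%) and in 4.43% of all 32851 promoter windows. None of the 9 windows of 7 called genes held it, which says only that these letters are not in those windows. The window with a match was that of Grin3b, which was not called, where the core lay on the other strand (CAGATGT as read along the gene) and began 67 bases before the start.

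Further genes of the glutamatergic synapse were counted by list, to be read beside the 7.92% of all genes that rose and the 7.01% that fell. The rises in glutamate synthesis, vesicular loading and uptake, at 1 of 11 genes, were near that share. Each list holds few genes, so its share is coarse, and the lists were chosen with earlier results of these data known. Among AMPA receptor auxiliary and biogenesis genes outside the 32, 3 of 15 tested rose and 4 fell, with a median log2 fold change of -0.01. Shisa6, whose product holds AMPA receptors at synapses, averaged 10.5 ± 0.74 CPM in mutants and 37.6 ± 3.55 CPM in controls (log2 fold change -1.82 ± 0.12, adjusted p = 0.000185). Olfm1, a secreted olfactomedin found in AMPA receptor complexes, rose by 1.42 ± 0.11 (adjusted p = 0.000393), and its call was lost without the library type term (adjusted p = 0.231). Gsg1l, an auxiliary subunit that reduces AMPA receptor currents, was at 44.6, 43.3 and 15.3 CPM in mutants 1, 2 and 3, against 76.1, 41.9 and 34.6 CPM in controls 1, 2 and 3. The groups overlapped across types (log2 fold change -1.05 ± 0.15, adjusted p = 0.00453, and 0.996 without the type term).

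Among postsynaptic scaffold genes, 3 of 23 rose and 5 fell, with a median of -0.03. Dlg2, encoding the scaffold PSD-93, averaged 3.26 ± 0.53 CPM in mutants and 51.6 ± 13.4 CPM in controls (log2 fold change -3.77 ± 0.16, adjusted p = 5.12e-05). Homer2, a scaffold that binds group I metabotropic receptors, averaged 252 ± 37.0 CPM in mutants and 45.5 ± 3.87 CPM in controls (2.50 ± 0.14, adjusted p = 0.000108). Lrfn2, a synaptic adhesion molecule of the SALM family, averaged 24.2 ± 1.80 CPM in mutants and 3.34 ± 0.51 CPM in controls (2.86 ± 0.16, adjusted p = 0.000118).

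Among secreted organizers of glutamate receptors, 4 of 9 rose and 1 fell, with a median of 0.65. Nptx1 and Nptx2, neuronal pentraxins that cluster AMPA receptors, went opposite ways. Nptx2 was at 11.0, 9.22 and 10.1 CPM in mutants 1, 2 and 3, against 0.191, 0.194 and 0.237 CPM in controls 1, 2 and 3 (log2 fold change 5.37 ± 0.22, adjusted p = 4.20e-05), and Nptx1 averaged 9.89 ± 0.04 CPM in mutants and 40.2 ± 2.89 CPM in controls (-2.03 ± 0.09, adjusted p = 5.88e-05). Cbln2, a cerebellin that links presynaptic neurexins to delta receptors such as GluD1, averaged 30.6 ± 6.63 CPM in mutants and 2.95 ± 0.77 CPM in controls (3.23 ± 0.19, adjusted p = 0.000121), while its receptor gene Grid1 was not called.

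Of the 11 genes of glutamate synthesis, vesicular loading and uptake, 1 rose and 3 fell, with a median of -0.04. The vesicular transporter gene Slc17a6 (VGLUT2) rose by 1.20 ± 0.19 (adjusted p = 0.00750), while Slc17a7 (VGLUT1) fell by 1.77 ± 0.16 and the uptake transporter gene Slc1a3 fell by 1.54 ± 0.22 on the log2 scale (adjusted p = 0.000662 and 0.00497). Without the library type term the calls of Slc17a6 (adjusted p = 0.0686) and Slc17a7 (0.213) were lost. None of the 3 genes of RNA editing enzymes was called, and Adar averaged 116 ± 9.81 CPM in mutants and 112 ± 2.98 CPM in controls. In metabotropic signalling, 2 of 13 rose and 3 fell, with a median of -0.13, and the called genes with the smallest p were Plcb4, a phospholipase C (0.91 ± 0.13, adjusted p = 0.00570), Gnao1, a G protein alpha subunit (-0.44 ± 0.09, adjusted p = 0.0238), and Rgs4, which shortens G protein signals (-1.34 ± 0.30, adjusted p = 0.0281). All 3 calls were lost without the library type term (adjusted p = 0.943, 0.996 and 0.111), and mutants and controls overlapped for Plcb4 and Gnao1.

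**Figure D5:**
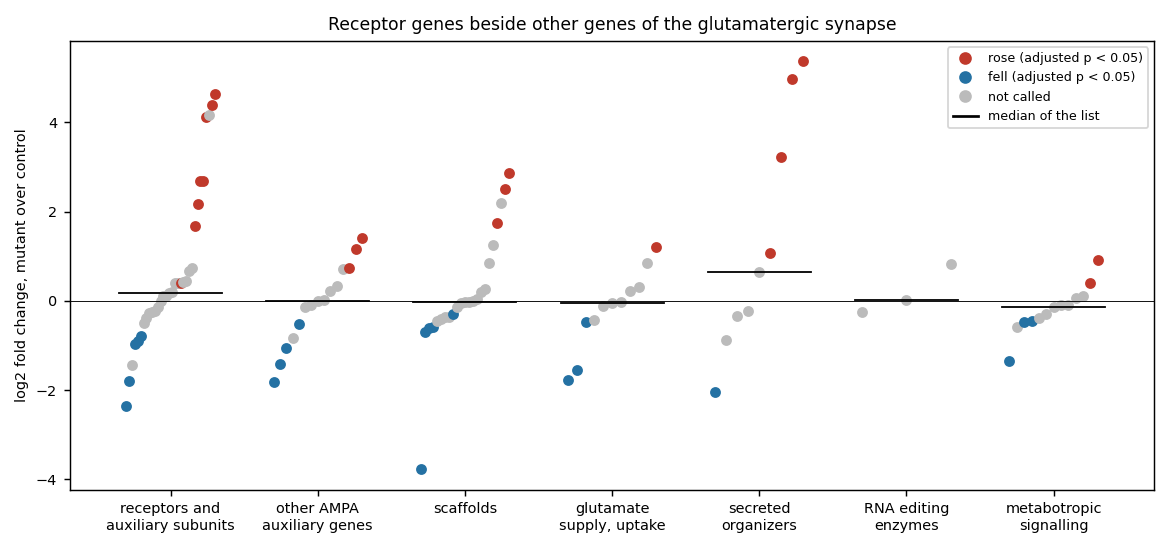
Log2 fold change (mutant over control) of the 32 receptor genes and of the genes of 6 further lists, each point a gene, sorted within its list and coloured by call, with the list's median as a line. Each list but that of the editing enzymes holds called rises and called falls.

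Markers of cell types were summed in each library as CPM. Their calls are to be read beside the 7.92% of all genes that rose and the 7.01% that fell. Pan-neuronal markers summed to 4152 to 6461 CPM in mutants and 5011 to 7501 CPM in controls, with the defining neuronal genes present in every library. Of these 7 markers, Snap25 was called higher (log2 fold change 0.39), and Stmn2 (-1.37, adjusted p = 0.000217) and Dcx (-0.48, adjusted p = 0.0321) were called lower, all with groups that overlapped across types and calls lost without the type term (adjusted p = 0.759, 0.996 and 0.911). Markers of cortical glutamatergic neurons summed to 2225 to 2855 CPM in mutants and 3654 to 4024 CPM in controls, with 5 of 7 called lower and Slc17a6, also in the glutamate supply list, called higher. Markers of intermediate progenitors, the dividing precursors of these neurons, summed to 407 to 512 CPM in mutants and 173 to 259 CPM in controls, with 3 of 4 called higher. Without the type term the calls of Tbr1, Neurod6, Bcl11b, Slc17a6, Eomes and Btg2 were lost. Radial glia markers summed to 100 to 211 CPM in mutants and 107 to 237 CPM in controls (3 of 8 called higher, 3 lower). Hes1 (log2 fold change 4.90), Sox2 (2.36) and Pax6 (1.85) were higher and Slc1a3 (-1.54) lower, without overlap and with calls kept without the type term. Vim (-0.64) and Fabp7 (-1.16) were lower, with groups that overlapped and calls lost without the type term (adjusted p = 0.998 and 0.934). Markers of Cajal-Retzius cells summed to 245 to 699 CPM in mutants and 198 to 720 CPM in controls (1 of 4 higher). Thus markers of glutamatergic neurons were lower and those of intermediate progenitors higher in the libraries where the receptor genes changed, and their part in the changes was not tested.

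Markers of other cell types were scarce. Interneuron markers summed to 2.47 to 2.88 CPM in mutants and 0.604 to 2.39 CPM in controls, astrocyte markers to 0.540 to 1.32 CPM in mutants and 0.0954 to 2.55 CPM in controls, and those of oligodendrocyte precursors to 1.56 to 3.75 CPM in mutants and 0.827 to 1.21 CPM in controls. Endothelial and mural markers summed to 1.57 to 3.14 CPM in mutants and 1.11 to 2.70 CPM in controls, microglial markers to 0.714 to 2.29 CPM in mutants and 1.47 to 1.90 CPM in controls, and erythroid markers to 5.89 to 20.4 CPM in mutants and 6.61 to 11.1 CPM in controls. The interneuron and oligodendrocyte precursor sums were higher in every mutant than in every control. Of the markers tested, 2 of 5 for interneurons (Dlx5, Slc32a1) and 2 of 2 for oligodendrocyte precursors (Pdgfra, Cspg4) were called higher. So were 1 of 3 for astrocytes (Aldh1l1) and 1 of 4 endothelial and mural ones (Kdr), and none was called lower. Without the type term these calls were lost (adjusted p = 0.119 to 0.996). Sox10 had no count in any library, and Gad1 stayed at or under 0.342 CPM. Cacng5 and Grin3a, at 9.38 to 17.2 CPM in the mutants, exceeded in each mutant the summed level of each of these lists except the erythroid one. Of the other called rises, Grik2 and Cacng4 also exceeded the interneuron sum in each mutant. Cacng3, Grik1, Neto1 and Grm7, at 0.374 to 2.04 CPM in the mutants, lay below the interneuron sum in each mutant. Levels of different genes do not compare as amounts of cells, and the part of such cells in these rises was not tested.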

How the data were processed

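Each deposited table lists, per the file headers, a transcript's length, effective length, estimated count and TPM. Per the submitters' processing notes, the authors used FastQC and kallisto, and mm9 is the build named. Versions are not given in the sources used here. Libraries were made with the TruSeq Stranded Total RNA kit and sequenced on an Illumina HiSeq instrument, per the labels' protocols. Of 97251 transcripts, 84637 (87.0%) matched GENCODE vM21 identifiers, and the deposited estimated counts were added up per gene, giving 34289 genes, and rounded to whole numbers. Unmatched transcripts, at 6.85% to 8.58% of counts, were left out of library sizes and tests. Kallisto divides reads between similar transcripts by estimate, so counts of single transcripts are less certain than gene sums.

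Counts were tested with edgeR 4.0.16 in R 4.3.3 (filterByExpr, TMM, quasi-likelihood test, Benjamini-Hochberg adjustment over all 16985 genes tested, threshold 0.05), with genotype and library type as terms. Library type was read from the effective lengths and its origin is not stated. The biological coefficient of variation was 0.186 with the type term and 0.701 without it. Effects within types came from a fit with separate effects and a pooled spread, in which the group with a single library is assumed to vary like the others. CPM are scaled to the TMM-adjusted library size. Shares used the authors' deposited TPM and exact two-sided permutation tests. Promoters came from RefSeq and exons from GENCODE vM21. The script was tested on simulated data. Called genes and those with a mean of at least 1 TPM in either genotype are given by library, and up to 3 called genes with the smallest p, or else the most abundant gene, are named from each further list. The 32 genes and the lists were chosen with earlier results of these data known. Alternatives were another normalization, no filter, an effective length offset, DESeq2 1.42.0, limma 3.58.1 on log2(TPM + 0.1), no type term and leaving out each library.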

Additional observations from a re-analysis of the deposited data

How the results depend on the processing

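The called genes numbered 2537, and 2311 with the effective length offset. They numbered 400 without the library type term, 4029 with DESeq2, 1336 with limma on log2(TPM + 0.1), 1606 within fixed-length and 1345 within estimated-length libraries, and 1294 to 3034 with a library left out. Without the type term as well they numbered 107, 96 and 329 after dropping mutants 1, 2 and 3, and 277, 84 and 97 after dropping controls 1, 2 and 3. The share of higher calls was 53.1%, against 67.5% without the type term, 63.2% with limma and 43.6% with DESeq2. Of the 32 receptor genes 13 were called, against 4 without the type term, 8 with limma, 16 with DESeq2 (adding Cacng2, Grin3b and Neto2), 14 with no filter on low counts (adding Grm4), and 8 to 12 with a library left out (without the type term as well, 2, 1 and 3 after dropping mutants 1, 2 and 3, and 4, 1 and 2 after dropping controls 1, 2 and 3). The effective length offset called 12 of the 32 and lost Cacng4. With the type term, 1 fit leaving out a library also called Cacng7 and 1 also called Grm4, both outside the 13. Counts within types over all genes, and leaving out libraries without the type term, were added after seeing the data, as were the alternative bounds of Cacng3. Gria3, Grik3, Grin3a and Cacng5 kept direction and call under the 15 alternatives run for each gene, which do not include leaving out libraries without the type term, and none of the 13 called receptor genes changed sign under these 15. Limma lost Gria2, Grik2, Grin2b, Cacng3 and Cacng4. The reversals were all in receptor genes that were not called, on the log2 scale. Within fixed-length libraries Gria1 was at 0.21, Grin2c at 0.082, Grm5 at 0.18, Grm2 at -0.10 and Grm3 at 0.43. With a library left out, Gria1 ranged from -0.48 to 0.21, Grin2c from -0.80 to 0.082, Grm5 from -1.13 to 0.19, Grm2 from -0.10 to 0.48, Grm3 from -0.53 to 0.44, Grik5 from -0.14 to 0.40 and Grm6 from -0.11 to 0.56. Grik5 was at -0.16 within estimated-length libraries. Grm6 was at -0.77 without the type term and -0.13 within estimated-length libraries. Grm8 was at -0.47 without the type term, -0.36 with the effective length offset and -0.42 with limma, and Cacng7 at 0.52 without the type term. With CPM in place of TPM, the share differences of Gria4, Grik3 and Grik4 (mutant minus control) were 3.58, -39.2 and 0.516 percentage points. The cause of these changes was not tested. With 3 libraries a genotype split unevenly between types, genes under 1 CPM rest on few counts. No paired analysis was possible because the labels do not match any mutant library to a control library. The numbers 1 to 3 used here only name libraries in the order of deposition.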
